A study of Mus musculus with 6 samples.

Results

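The genes described here encode the ligands, receptors, SMAD proteins and modulators of TGF-beta and BMP signalling. They are 46 named genes, found by symbol among the 21887 protein-coding genes of the RefSeq annotation of GRCm38.p6: 11 ligand, 12 receptor, 8 SMAD, 4 latent TGF-beta binding protein, 3 secreted BMP antagonist, 4 ID protein, 2 SKI co-repressor and 2 SMURF ubiquitin ligase genes. Binding of Onecut3 at these genes was read from ChIP-Seq of mouse embryonic fibroblasts (MEFs) of strain C57BL/6, primary cells taken from mouse embryos. Onecut3 is a DNA-binding protein with a CUT domain and a homeodomain; here it carried a FLAG tag and was expressed from a retroviral Retro-X Tet-One construct. The series has 3 Onecut3-OE libraries precipitated with anti-FLAG after induction with 100 ng/mL doxycycline, 1 IgG library and 1 input library of the same induced cells, and 1 anti-FLAG library of control cells given no doxycycline. All groups are of the same strain and cell type, and every measured peak is from cells that overexpress Onecut3 from an introduced construct. Peak lists were used for the 3 Onecut3-OE FLAG replicates only. The control FLAG, IgG and input libraries were not analysed here, nor was expression by RNA-Seq, so peaks that the antibody gives without Onecut3 have not been removed, no condition is compared with another, and neither the expression of the genes nor the fibroblast markers of the cells were measured.

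TGF-beta and BMP ligands are secreted dimers that bring together type I and type II serine/threonine kinase receptors at the cell surface. The receptors phosphorylate receptor SMADs, which join Smad4 and enter the nucleus to regulate transcription. In fibroblasts the TGF-beta branch is known for inducing matrix synthesis and the myofibroblast state, and the BMP branch for inducing the ID genes. Latent TGF-beta binding proteins hold the ligand in the matrix, secreted antagonists block BMP ligands, and inhibitory SMADs, SKI proteins and SMURF ligases restrain the signal inside the cell.

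The promoter of Smad1, which encodes a receptor SMAD of the BMP branch, was the only promoter of these genes seen to overlap a region found in all 3 replicates. Promoter windows of 250 bases before to 50 after the annotated start, from RefSeq, were matched by symbol for 34 of the 46 genes, and this holds for those 34. The overlap was thus seen at 1 of 34 genes, against 327 of all 17492 protein-coding genes with a window (1.87%). A count of 1 gene does not set the 34 apart from that share. The genes with no entry were Tgfb3, Tgfbr3, Bmp2, Bmp7, Acvrl1, Smad2, Smad4, Smad7, Gdf6, Nog, Id1 and Skil. The windows of Smad1, Smad5 and Id2 are printed because Smad1 had both a peak in every list and a match to ATCAAT, a core form of the site that ONECUT proteins bind, while Smad5 had a match without a peak and Id2 had peaks without a match. Capitals mark ATCAAT, which was searched on both strands and does not overlap the other motif searched, ATCGAT. The windows are on GRCm38.p6 at chr8:79399379-79399678 (minus strand) for Smad1, chr13:56702760-56703059 (plus strand) for Smad5 and chr12:25096043-25096342 (minus strand) for Id2.
Smad1: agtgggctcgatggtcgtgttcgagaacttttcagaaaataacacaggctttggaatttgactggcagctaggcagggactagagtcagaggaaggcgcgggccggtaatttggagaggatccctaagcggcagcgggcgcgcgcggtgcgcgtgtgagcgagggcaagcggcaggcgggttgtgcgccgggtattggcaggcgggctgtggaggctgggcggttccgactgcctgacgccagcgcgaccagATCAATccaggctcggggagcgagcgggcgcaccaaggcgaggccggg
Smad5: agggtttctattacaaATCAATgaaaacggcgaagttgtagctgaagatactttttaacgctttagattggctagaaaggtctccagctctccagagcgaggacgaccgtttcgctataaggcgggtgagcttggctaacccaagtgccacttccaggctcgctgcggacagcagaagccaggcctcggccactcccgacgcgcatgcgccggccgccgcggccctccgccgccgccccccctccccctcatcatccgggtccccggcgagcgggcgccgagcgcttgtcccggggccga
Id2: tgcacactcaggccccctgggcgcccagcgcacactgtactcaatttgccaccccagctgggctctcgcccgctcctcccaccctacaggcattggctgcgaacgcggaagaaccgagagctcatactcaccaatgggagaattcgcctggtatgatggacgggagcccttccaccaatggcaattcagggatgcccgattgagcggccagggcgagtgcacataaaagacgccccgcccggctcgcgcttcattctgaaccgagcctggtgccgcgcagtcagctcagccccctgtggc

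The ATCAAT of Smad1 lay 3 to 8 bases into the transcribed sequence, at chr8:79399421-79399426. It was inside the peak of every list, and its centre lay 9.5 bp from the summit in replicate 1, 46.5 bp in replicate 2 and 17.5 bp in replicate 3. In Smad5, another receptor SMAD of the BMP branch, the match lay at bases -234 to -229 from the start, and no list had a peak in the window. Id2 encodes a helix-loop-helix protein that binds bHLH factors, and its window was wholly covered by a region with a peak in replicates 1 and 3 and none in replicate 2. A match is a description of the sequence, and ATCAAT was present in 2 of the 42 promoter windows of the 34 genes, some of which have several starts (4.76%), in 7.54% of all 32851 windows in the table and in 27.1% of the 432 windows that overlapped a region found in all replicates. ATCGAT was in 0 of the 42 windows, in 0.925% of all windows and in 11.3% of the windows with such a region.

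Replicates 1, 2 and 3 had 31600, 12856 and 24822 peaks, covering 8.67, 3.45 and 6.82 Mb. Each peak carries the fold that the authors' caller gave for the ChIP pileup at its summit over a background, with the input as control, and a q value, the p adjusted for all tests in that list. The background solved for replicates 1 and 3 was often the same from region to region at the TGF-beta and BMP genes (2.30 and 2.14). A fold there mostly reflects the pileup. The lists give no read totals, so depth is unknown, and a fold is compared here only with other folds of the same replicate. Peaks that overlapped by at least 1 bp were joined into 50844 regions, of which 5114 (10.1%) had a peak in every replicate and are called shared. Peaks were low: the median pileup was 10 fragments in replicate 1 and 10 in replicate 3, and 33.6%, 71.0% and 47.7% of peaks in replicates 1, 2 and 3 had q of at most 0.05. No source used here says that the replicates were separate cultures, so recurrence between them may be technical.

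Shared regions lay inside or at the ends of TGF-beta and BMP genes more often than of other protein-coding genes by count when all listed peaks were used, while within 100 kb the shares were close. A shared region lay inside 10 of the 46 genes (21.7%), against 9.51% of the 21841 other protein-coding genes. These were the ligand genes Bmp6 and Bmp7, the receptor genes Tgfbr3, Acvr1 and Acvr2a, Smad1, Smad6, Ltbp1, Ski and Smurf1. Within 3 kb of either gene end, 7 of the 46 carried a shared region (15.2%), against 5.3% of other genes, namely Tgfb2, Tgfb3, Tgfbr3, Acvr1, Acvr2a, Smad1 and Smurf2. Within 100 kb, 20 had one (43.5%), against 40.6% of other genes, and the median distance to the nearest shared region was 150 kb for the 46 genes and 152 kb for the others. Without replicate 2, a peak in both other lists made a region shared. Then 15 of the 46 genes had one inside, against 14.4% of other genes. With a window of 1 kb at the ends, 3 of the 46 genes (Acvr1, Smad1 and Smurf2) had one, against 3.29% of other genes. The direction held when peaks whose q exceeded 0.05 were left out. A shared region then lay inside 8 of the 46 genes, against 6.21% of other genes. It lay at an end of 5 of the 46, against 3.58% of other genes, and within 100 kb of 17 of the 46, against 29.6%. Stricter thresholds left few genes. At -log10 q of at least 5, 0 of the 46 had one inside, against 1.22% of other genes, and 0 at an end, against 0.865%. At a fold of at least 5 there were 0 inside, against 1.19%, and 0 at an end, against 0.820%. With shares this low in other genes, a count of 0 does not set the 46 apart. Within 100 kb, 1 of the 46 had one at the q threshold, against 7.31% of other genes. At the fold threshold it was 0 of the 46, against 7.03%. Counts this small are given without a direction. These counts are descriptions without a test, since the genes were chosen as a list with results of these data known.

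The 46 genes were longer than most, so the counts were also set beside other genes of like span. Their median span was 43.4 kb, with a range of 1.16 to 387 kb, against a median of 17.1 kb for other genes. None of the 14 genes under 20 kb had a shared region inside, against 3.12% of other genes of that span. They include Tgfb1, Bmp2, Bmp4, Nog and all 4 ID genes. None of the 14 had any at an end, against 4.71%. With shares this low in other short genes, a count of 0 does not set the 14 apart. Within 100 kb, 2 of those 14 had one (14.3%), against 36.0% of other genes of that span. Among genes of 20 to 100 kb, a shared region lay inside 6 of 23 (26.1%), against 10.97% of others, within 3 kb of an end in 4 (17.4%), against 5.92%, and within 100 kb in 12 (52.2%), against 43.3%. Over 100 kb, a shared region lay inside 4 of 9 (44.4%), against 36.2% of others, within 3 kb of an end in 3 (33.3%), against 6.28%, and within 100 kb in 6 (66.7%), against 54.8%. Per Mb of gene span, the 46 genes held 6.11 shared regions and the other genes 2.62. Ltbp1 and Tgfbr3 held 9 of the 19 shared regions inside these genes, and without them the rate was 3.94 per Mb.

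**Figure D1:**
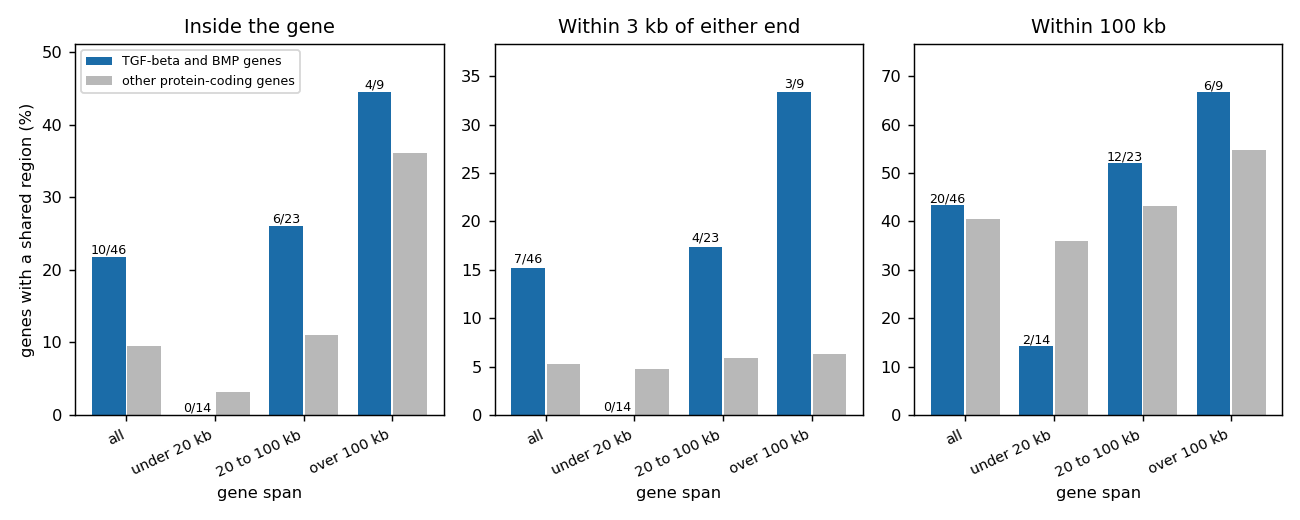
Percent of genes with a shared region (y axis) inside the gene, within 3 kb of either end and within 100 kb, for the TGF-beta and BMP genes (blue, with the number of genes with a region over the number in the group) and all other protein-coding genes (grey), in all and by gene span (x axis). The 14 short TGF-beta and BMP genes had none inside, against 3.12% of other short genes, too low a share to set them apart. The y axes differ between panels.

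In each list taken alone, a larger share of the 46 genes than of other genes had a peak, without matching for gene span. Per Mb of span, replicate 1 had 22.5 peaks inside the 46 genes and 14.3 inside other genes. The rates were 11.3 and 6.12 for replicate 2 and 22.8 and 11.3 for replicate 3, with Ltbp1 and Tgfbr3 included. Inside the gene, 27 of 46 (58.7%) had a peak of replicate 1, against 29.6% of other genes, 16 (34.8%) had a peak of replicate 2, against 17.2%, and 22 (47.8%) had a peak of replicate 3, against 25.7%. Within 3 kb of either end, replicate 1 had peaks at 17 (37.0%), against 18.4% of other genes, replicate 2 at 10 (21.7%), against 10.2%, and replicate 3 at 14 (30.4%), against 15.7%. Within 100 kb most genes had a peak: replicate 1 at 45 (97.8%), against 86% of other genes, replicate 2 at 38 (82.6%), against 64.5%, and replicate 3 at 43 (93.5%), against 80.5%. Acvrl1, which encodes the type I receptor ALK1 of endothelial cells, was the gene without a peak of replicate 1 within 100 kb. Of the 132 regions inside or within 3 kb of the 46 genes, 86 (65.2%) were in 1 list, 24 (18.2%) in 2 lists and 22 (16.7%) in all 3, against 71.7%, 16.8% and 11.5% of the 25687 such regions at other genes.

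**Figure D2:**
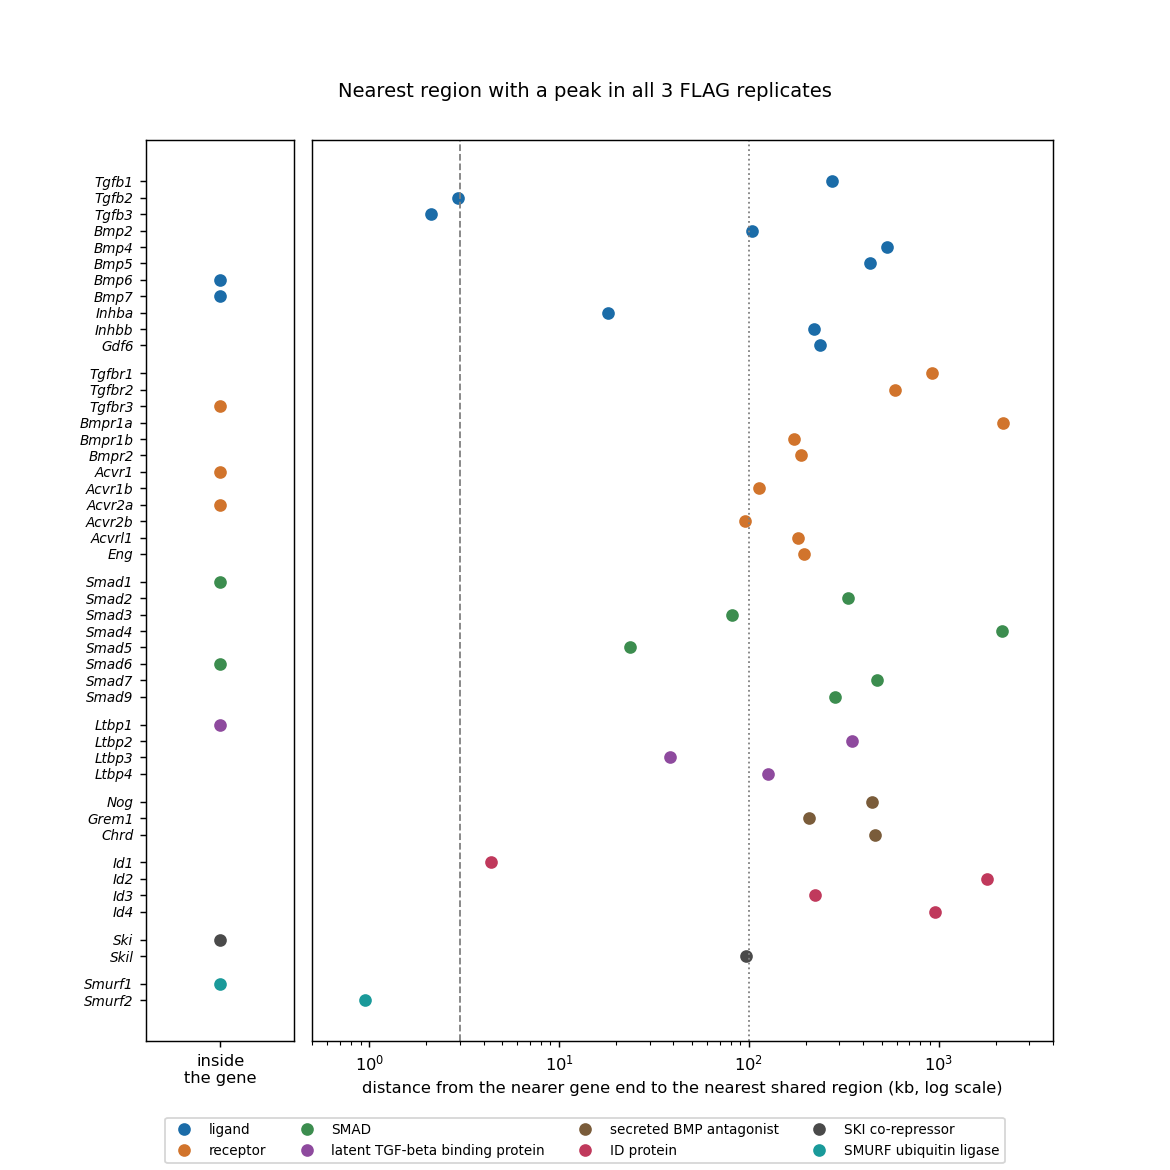
Distance in kb (x axis, log scale) from the nearer end of each of the 46 genes (y axis, coloured by class) to the nearest region with a peak in all 3 FLAG replicates. The left panel holds the 10 genes with such a region inside, the dashed line marks 3 kb and the dotted line 100 kb, and Bmpr1a was farthest at 2184 kb.

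The 22 shared regions inside or within 3 kb of these genes were of middling strength. Their median folds in replicates 1, 2 and 3 were 3.94, 4.18 and 3.97, against 3.94, 4.18 and 4.05 over all 5114 shared regions. Ranked by the mean of their ranks of fold in the 3 lists, they stood between place 770 and place 4705 of 5114. None had a fold of at least 5 in every list, against 453 of all shared regions (8.86%), and 10 reached 5 in at least 1 list. All 3 peaks had q of at most 0.05 at 14 regions (63.6%), against 57.0% of all shared regions, and a further 6 regions had it in 2 lists and 2 regions in 1 list. The pileup was 10 to 20 fragments in replicate 1 and 8 to 19 in replicate 3, so the peaks of these lists rest on few fragments. Without replicate 2 the number of shared regions at these genes was 36. Of the 22, 15 lay inside a gene at over 3 kb from both ends, and their widths were 274 to 614 bp.

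**Figure D3:**
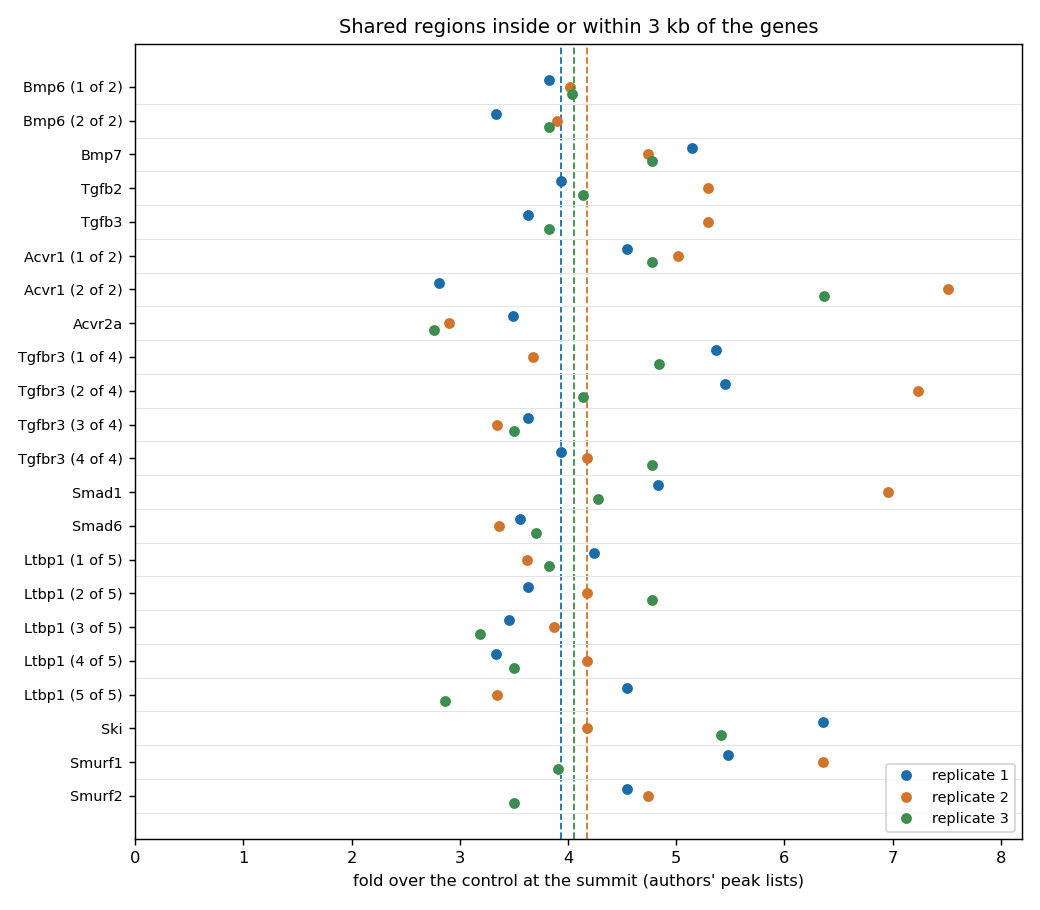
Fold at the summit (x axis, from the authors' lists) of the 22 shared regions inside or within 3 kb of the genes (y axis), in replicates 1, 2 and 3 (colours). Dashed lines mark the median of all 5114 shared regions in each replicate (3.94, 4.18 and 4.05), and points lie on both sides of them.

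Among the ligand genes, those for BMP6 and BMP7 held shared regions inside, and those for TGF-beta 2 and TGF-beta 3 had a region just outside. Bmp6 encodes a BMP ligand known for control of iron balance in the liver, and 2 shared regions lay downstream of its start. The first, chr13:38351942-38352217, 6.39 kb downstream, had folds of 3.82, 4.02 and 4.04 in replicates 1, 2 and 3, with q of 0.00265, 0.000655 and 0.0014. The second, chr13:38422282-38422889, 76.7 kb downstream, had folds of 3.33, 3.90 and 3.82, and its q was 0.0673 in replicate 1. Every fold at these shared regions was below the median shared region of its list.

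Bmp7 encodes a BMP ligand needed for kidney and eye development, and its region was the strongest of the ligand genes by mean rank (place 807). At chr2:172934939-172935377, inside the gene and 4.94 kb from its nearer end, the folds were 5.15, 4.73 and 4.78 with q of 9.38e-06, 0.000105 and 0.000131. These folds were above the median shared region in every replicate. Another 2 shared regions flanked the gene, at 6.54 kb (chr2:172946857-172947149; folds of 4.24, 3.35 and 4.14) and 26.7 kb (chr2:172840981-172841287; folds of 4.54, 4.73 and 4.46), and Bmp7 was the nearest gene to both.

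Tgfb2 and Tgfb3 encode TGF-beta isoforms with roles in heart, palate and skeletal development. The Tgfb2 region, chr1:186712626-186713113, lay at -6.97 kb from the annotated start, upstream of it, and 2.93 kb beyond the gene's span. Its folds were 3.94, 5.29 and 4.14, and its q values were 0.00517, 3.62e-06 and 0.00301. Inside Tgfb2, a region in replicates 1 and 3 only (chr1:186680725-186681022) had a fold of 5.75 in replicate 1 and of 3.82 in replicate 3. The Tgfb3 region, chr12:86081165-86081571, lay 2.12 kb from the gene and had folds of 3.63, 5.29 and 3.82. Its nearest gene was Ift43, an intraflagellar transport gene, and whether the region acts on any gene was not tested. A region with a better mean rank (place 894, against 2188), chr12:86082764-86083095, 3.72 kb from Tgfb3 and also nearest to Ift43, had folds of 7.27, 3.90 and 6.37.

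The remaining ligand genes had no shared region inside or within 3 kb. Inhba, which encodes the activin A subunit, had a shared region at -25.9 kb from its annotated start, upstream of it, chr13:15985769-15986186, with folds of 4.87, 3.38 and 4.63, and Inhba was its nearest gene. For Tgfb1, Bmp2, Bmp4, Bmp5, Inhbb and Gdf6 the nearest shared region was over 100 kb away, from 103 kb at Bmp2 to 534 kb at Bmp4. Tgfb1, Bmp2, Bmp4 and Inhbb had no peak of any list inside or within 3 kb, Bmp5 held 2 regions of replicate 3 alone, and Gdf6 held 1 region of replicates 2 and 3 with folds of 2.51 and 3.74.

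Among the receptor genes, Tgfbr3, Acvr1 and Acvr2a held all 7 shared regions, while the genes for the signalling TGF-beta receptors, Tgfbr1 and Tgfbr2, held none. Tgfbr3 encodes betaglycan, a co-receptor that presents TGF-beta 2 and also binds inhibin, and held 4 shared regions. A pair lay within 1 kb of each other near the middle of the gene: chr5:107178885-107179427 had folds of 5.37, 3.67 and 4.84, and chr5:107179599-107180038 had folds of 5.45, 7.24 and 4.14. The second of the pair had the best mean rank of all 22 regions (place 770). The other 2, chr5:107200363-107200875 and chr5:107287238-107287537, had folds of 3.63, 3.35 and 3.50 and of 3.94, 4.18 and 4.78. The last lay 2.09 kb inside an end of the gene, whose strand is not given in the table. In all, 14 regions of any list lay inside Tgfbr3, from 6 peaks of replicate 1, 5 of replicate 2 and 11 of replicate 3.

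Acvr1 encodes ALK2, a type I receptor of BMP and activin ligands, and had a shared region at its start whose fold was above the median shared region in replicates 2 and 3 and below it in replicate 1. At chr2:58566247-58566640 replicate 1 had a fold of 2.80 (q = 0.167), replicate 2 a fold of 7.51 (q = 6.77e-13) and replicate 3 a fold of 6.37 (q = 1.46e-08). The summits lay 496, 347 and 421 bp downstream of the start. The fold of replicate 2 was the highest of that list among the 22 regions, and the fold of replicate 1 was the lowest of its list. The solved background of replicate 1 was 3.64 there, above the 2.30 found at many of these regions. Its pileup was 12 fragments, while the lowest of that list among the 22 was 10. Upp2, a uridine phosphorylase gene, was as near to this region as Acvr1. A further shared region, chr2:58467058-58467419, 99.6 kb downstream of the start and inside the gene, had folds of 4.54, 5.01 and 4.78 with q of 0.000257, 2.01e-05 and 0.000131. Acvr1 held 12 regions of any list, of which these 2 were shared.

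Acvr2a encodes a type II activin receptor, and its region was the weakest of the 22 by mean rank (place 4705). It lay 2.73 kb downstream of the start, at chr2:48816696-48817026, with folds of 3.49, 2.90 and 2.76 and q of 0.0201, 0.122 and 0.232. With peaks of q of at most 0.05 alone, Acvr2a no longer counted, nor did Acvr1 at its start or Smad6. Acvr2b, the other type II activin receptor gene, had a shared region 95.4 kb away that lay at Oxsr1, with folds of 3.03, 2.66 and 3.42.

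The other receptor genes held peaks that did not recur in all lists. In Tgfbr2, which encodes the type II TGF-beta receptor, a region at chr9:116091604-116091928 had folds of 3.65 in replicate 1 and 5.42 in replicate 2 and no peak in replicate 3. Tgfbr1 held a peak of replicate 1 alone. Bmpr1b, at 332 kb the longest receptor gene, held 8 regions, 2 of them in 2 lists and none in all 3. Bmpr1a, Bmpr2 and Eng, the gene of the co-receptor endoglin, held only regions found in 1 list, while Acvr1b, Acvr2b and Acvrl1 had no peak inside or within 3 kb. The receptor genes as a class had 48 regions inside or within 3 kb, of which 36 were in 1 list, 5 in 2 lists and 7 in all 3.

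**Figure D4:**
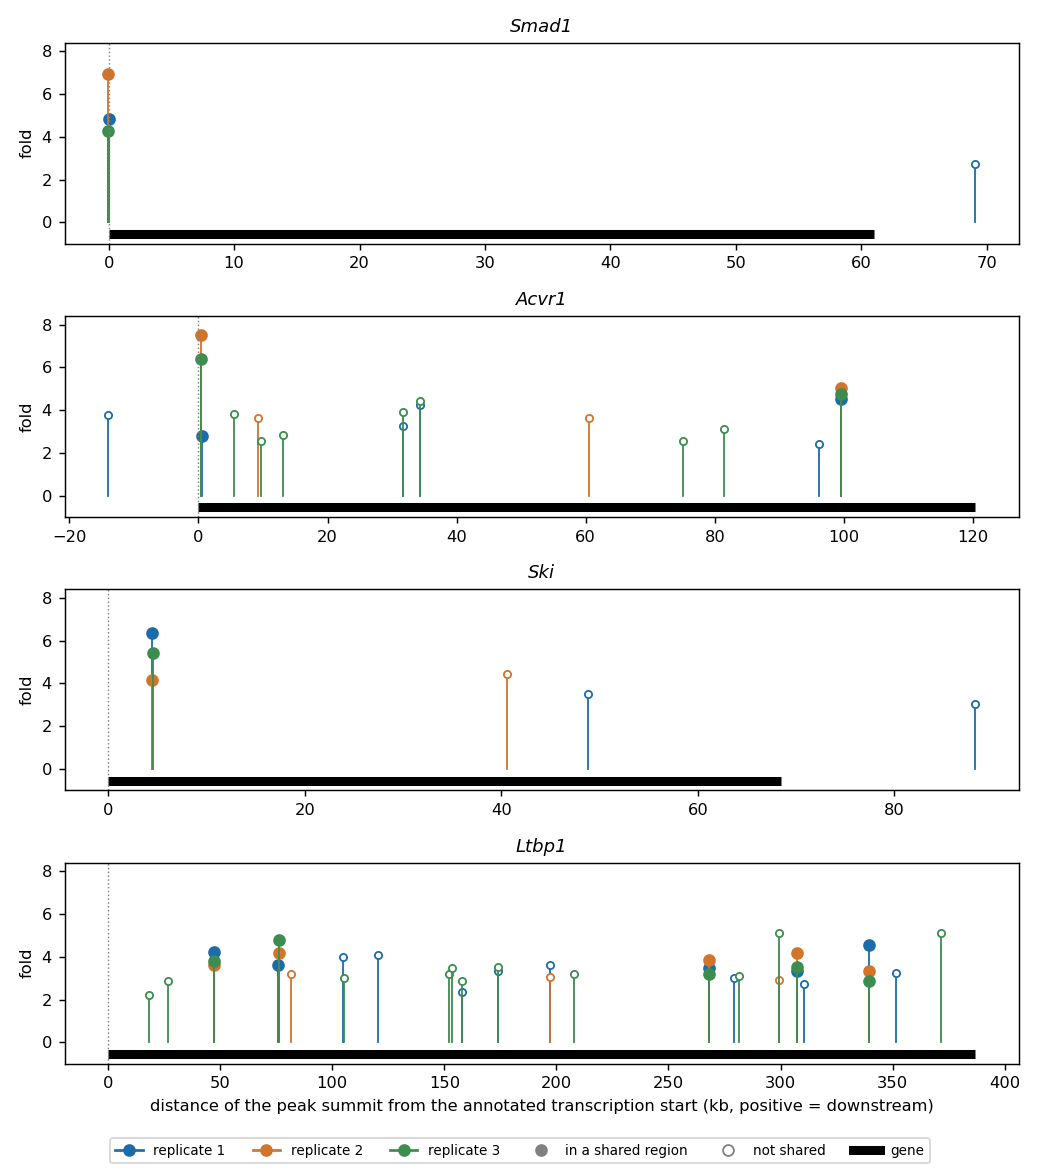
Fold (y axis) of each peak of replicates 1, 2 and 3 (colours) by the distance of its summit from the annotated start in kb (x axis, positive downstream) at Smad1, Acvr1, Ski and Ltbp1, with the gene as a black bar and 20 kb on either side. Filled circles stand for peaks in a shared region: 3 of 4 peaks at Smad1, 6 of 19 at Acvr1, 3 of 6 at Ski and 15 of 37 at Ltbp1, whose first annotated start is the zero.

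Of the SMAD genes, Smad1 had the region at the promoter described above, and Smad6 had a weaker region inside the gene. The Smad1 region, chr8:79399315-79399783, had a fold of 4.83 (q = 1.39e-05) for replicate 1, of 6.96 (q = 4.09e-11) for replicate 2 and of 4.27 (q = 0.000656) for replicate 3. The summits lay upstream of the annotated start, at -5, -42 and -13 bp, and the folds were above the median shared region in each list. The peaks rested on pileups of 17 fragments in replicate 1 and 14 in replicate 3. Among all 17492 protein-coding genes with an entry in the promoter table, 327 (1.87%) had a window that overlapped a shared region. No further region of any list lay inside Smad1 or within 3 kb of it.

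Smad6 encodes an inhibitory SMAD that acts mainly on the BMP branch. Its region, chr9:63994686-63995105, 27.1 kb downstream of the start, had folds of 3.56, 3.36 and 3.70, and the q of replicate 2 was 0.0699. A second shared region lay 10.9 kb from the gene, chr9:63941760-63942224, with folds of 3.85, 2.71 and 3.85, and Smad6 was its nearest gene. All of these folds were below the median shared region of their list.

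All 8 SMAD genes had at least 1 peak inside or within 3 kb, but 16 of their 22 regions were in 1 list. Smad7, the other inhibitory SMAD gene, held 6 regions, 1 of them in replicates 1 and 2 with folds of 4.24 and 3.35 and the rest in 1 list. A peak of replicate 3 alone, 2.54 kb from Smad7, had a fold of 5.09. Smad2 and Smad3, the receptor SMADs of the TGF-beta branch, each held 1 region in 2 lists, and Smad9, a further BMP-branch SMAD gene, held 2 regions of 1 list. Smad3 and Smad5 had shared regions farther away. The Smad3 region, chr9:63839008-63839315, lay upstream, at -81.2 kb from the start, with folds of 3.56, 4.09 and 4.36 and had Smad3 as its nearest gene. The Smad5 regions lay 23.8 and 51.7 kb beyond the gene, with Trpc7 nearest to both. Smad4, the common partner, was 2163 kb from the nearest shared region.

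Of the latent TGF-beta binding protein genes, Ltbp1 held 5 shared regions, the most of any of the 46 genes. Ltbp1 is also the longest of them, at 387 kb, and 22 regions of any list lay inside it. The 5 regions had folds of 4.24, 3.62 and 3.82 at chr17:75052475-75052806, of 3.63, 4.18 and 4.78 at chr17:75081326-75081733, of 3.45, 3.87 and 3.18 at chr17:75273363-75273768, of 3.33, 4.18 and 3.50 at chr17:75312840-75313113, and of 4.54, 3.35 and 2.87 at chr17:75344701-75344974. In 2 of the 5 regions all 3 lists had q of at most 0.05. The nearest to an end of the gene lay 47.0 kb from it. A region in replicates 2 and 3 only, chr17:75304633-75305003, reached a fold of 5.13 in replicate 3.

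Ltbp2, Ltbp3 and Ltbp4 had no shared region inside or within 3 kb. Ltbp2 and Ltbp3 had no peak of any list there, but Ltbp3 had 24 regions of any list within 100 kb, of which 2 were shared. Ltbp4 had a peak of replicate 3 alone, 2.55 kb from the gene.

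The secreted BMP antagonist genes had 4 regions inside or within 3 kb, all in 1 list. Nog, which encodes noggin, had a peak of replicate 1 with a fold of 3.22 on 1 side and a peak of replicate 3 with a fold of 3.50 on the other. Grem1, which encodes gremlin, had a peak of replicate 1 upstream, at -1.47 kb from its start, with a fold of 3.33. Chrd, which encodes chordin, had a peak of replicate 1 with a fold of 2.73 inside the gene. The nearest shared region was 207 kb from Grem1, 448 kb from Nog and 462 kb from Chrd.

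The ID genes, which BMP signals induce, had no shared region inside or within 3 kb, yet each had a peak of at least 1 list there. Id2 had the region over its promoter, chr12:25095581-25096366, with folds of 3.94 in replicate 1 (q = 0.00517) and 3.18 in replicate 3 (q = 0.142). Id3 had a region of replicates 2 and 3, upstream at -1.48 kb from its start, with folds of 2.13 and 2.53, and neither q was below 0.05. Id4 had a peak of replicate 2 alone, 648 bp downstream of its start, with a fold of 3.27.

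Id1 had a region of replicates 2 and 3 at 2.37 kb, with folds of 2.93 and 3.37, and a shared region at 4.38 kb. That shared region, chr2:152741787-152742164, had folds of 4.53, 5.60 and 5.70 with q of 7.64e-06, 3.32e-10 and 1.55e-07, and Id1 was its nearest gene. By mean rank it stood at place 748, ahead of all 22 regions inside or within 3 kb of the 46 genes. Another 3 shared regions lay 29.4, 57.3 and 74.2 kb from Id1, each nearest to Bcl2l1 or H13.

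The SKI and SMURF genes, which restrain SMAD signals, had 3 shared regions inside or within 3 kb. Ski encodes a co-repressor that binds SMAD complexes, and its region, chr4:155217598-155218211, lay 4.52 kb downstream of the start. Replicate 1 had a fold of 6.36 (q = 5.63e-09), the highest of that list among the 22 regions, replicate 2 a fold of 4.18 (q = 0.00226) and replicate 3 a fold of 5.41 (q = 4.18e-06). Skil, which encodes the related SnoN, had no peak inside or within 3 kb, and its shared region, chr3:31219824-31220288, with folds of 6.36, 6.40 and 3.50, lay 96.9 kb away at Slc7a14.

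Smurf1 encodes a ubiquitin ligase for SMADs and receptors, and its region, chr5:144909591-144909906, 56.1 kb downstream of the start, had folds of 5.48, 6.36 and 3.91. A region in replicates 1 and 3 only, chr5:144950699-144950941, had folds of 4.22 and 4.15. The Smurf2 region, chr11:106818765-106819110, lay 0.951 kb beyond the end far from the start, with folds of 4.54, 4.73 and 3.50. Its nearest gene was Cep95, a centrosomal protein gene, and whether it acts on any gene was not tested.

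**Figure D5:**
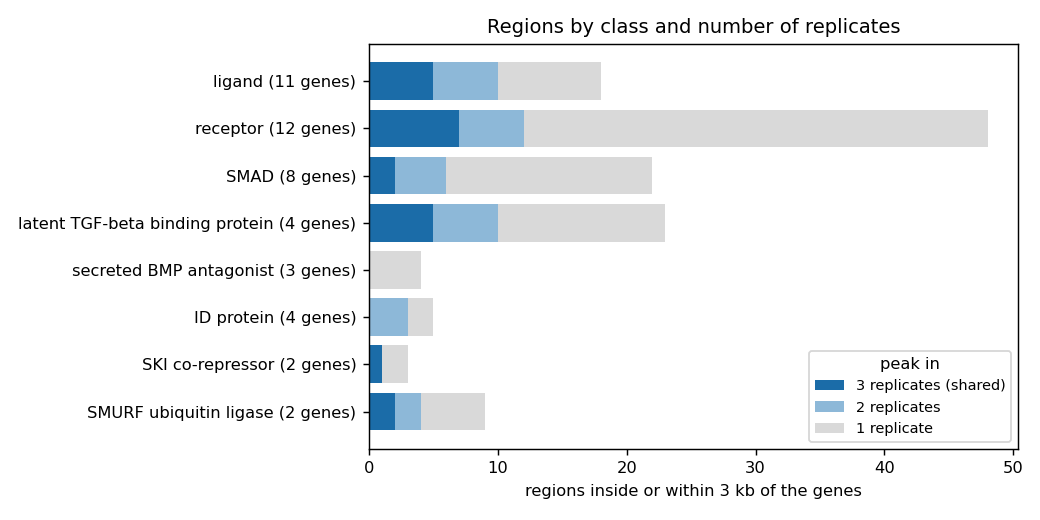
Number of regions inside or within 3 kb of the genes (x axis) by class (y axis), split by the number of replicates with a peak in the region. Receptor genes had 48 regions, of which 7 were shared, and latent TGF-beta binding protein genes had 23, of which 5 were shared, all in Ltbp1.

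Between classes, the number of genes with a shared region inside or within 3 kb was 4 of 11 ligand, 3 of 12 receptor, 2 of 8 SMAD, 1 of 4 latent TGF-beta binding protein, 0 of 3 antagonist, 0 of 4 ID, 1 of 2 SKI and 2 of 2 SMURF genes. The classes differ in length, with a median span of 1.93 kb in the ID genes, 9.97 kb in the antagonist genes, 22.3 kb in the ligand genes, 48.2 kb in the SKI genes, 64.0 kb in the latent TGF-beta binding protein genes, 65.0 kb in the SMAD genes, 88.4 kb in the receptor genes and 95.0 kb in the SMURF genes. The share of regions found in all 3 lists was 5 of 18 at the ligand genes and 2 of 22 at the SMAD genes, and with so few genes in a class no class is set apart from another. By annotated starts in place of gene ends, 3 of the 34 genes with an entry carried a shared region no more than 3 kb from a start (8.82%), namely Smad1, Acvr1 and Acvr2a, against 4.34% of the 17458 other genes with one. In all, 13 of the 46 genes (28.3%) had a shared region inside or within 3 kb, against 11.4% of other protein-coding genes. A further 7 had one between 3 and 100 kb only, and 26 had none within 100 kb. Of the 18 shared regions between 3 and 100 kb, 6 had the TGF-beta or BMP gene as the nearest.

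Among 90 other genes of the pathway, from a list of further ligands, receptors, modulators and targets, the shares inside the gene and at its ends lay between those of the 46 genes and of other protein-coding genes, and the share within 100 kb was above both. A shared region lay inside 14 of the 90 (15.6%), within 3 kb of an end of 8 (8.89%) and within 100 kb of 47 (52.2%). The 90 genes were not split by gene span, so how far length enters these shares was not tested. By class, the 14 were 7 of 24 extracellular modulators, 3 of 9 receptors or co-receptors, 2 of 18 intracellular modulators, 1 of 22 ligands, 1 of 10 TGF-beta targets and 0 of 7 BMP targets. The strongest by mean rank was inside Crim1, which encodes a transmembrane protein that binds BMPs, at chr17:78218518-78218866, with folds of 4.96, 7.35 and 6.44. A region 0.538 kb from Dlx5, a BMP-induced homeobox gene, had folds of 4.84, 5.29 and 6.05. Regions inside Fbn1, the gene of fibrillin-1, a matrix protein that anchors latent TGF-beta, and inside Bmper, which encodes a BMP-binding secreted protein, had folds of 6.22, 4.63 and 5.61 and of 5.15, 4.73 and 4.78. The Bmper folds were equal to those at Bmp7, but single values recurred at many regions, such as 4.78 in replicate 3 also inside Acvr1 and Ltbp1. The match therefore marks no likeness between the genes.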

How the data were processed

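ChIP-Seq peak lists of 3 Onecut3-OE FLAG replicates were used, grouped by the sample labels. According to the submitters' notes, MACS2 2.1.0, deepTools 3.3.2 and Bowtie2 2.2.6 were used with GRCm38, each without a stated role. Peaks were called for each sample with the input as control, as the peak names show. In the deposited lists a peak has a fold (ratio of ChIP pileup to background, with 1 added to each), p and q values as −log10 from the authors' caller, and a deposited score, which was not used. A fold and a number of peaks both move with depth, which is unknown. Pileups were solved from fold and p under a Poisson background, within 0.001 in −log10 p, for 99.9% of peaks in replicate 1, 100.0% in replicate 3 and 0.179% in replicate 2, so replicate 2 has none.

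Gene spans came from RefSeq (GRCm38.p6), without 13 mitochondrial genes. The table holds no exons, so exons and introns were not told apart. A neighbouring gene and a detail of the cells are not reported here. The genes and lists were chosen with earlier results of these data known. Values in every replicate are given for genes with a shared region inside or within 3 kb and for the best-ranked farther regions, and for other genes by counts and, for each class, the region with the highest fold in any list. No test was run, since 1 condition has peak lists. Alternatives changed the peak threshold, the overlap, the windows and the replicates, and the use of annotated starts was chosen after seeing the data. Overlap counting and the pileup solution were tested on simulated data. The tools were scipy 1.17.1, pandas 2.3.3, numpy 2.4.6 and, for plots, matplotlib 3.10.9, under Python 3.11.15.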

Additional observations from a re-analysis of the deposited data

How the results depend on the processing

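Of 64 values recomputed under the alternatives, 41 stayed within 1.5 times the reported value and 23 did not. Gene counts below are out of 46 unless a class or another number is named, while other genes are given as percentages. With only peaks of −log10 q of at least 5, the TGF-beta and BMP genes had 0 shared regions, with 0 genes inside, 0 at the ends and 1 within 100 kb, against 1.22%, 0.865% and 7.31% of other genes. With only peaks of fold of at least 5, they had 0 shared regions, with 0 genes inside, 0 at the ends and 0 within 100 kb, against 1.19%, 0.820% and 7.03% of other genes. With q of at most 0.05, 14 shared regions were left, with 8 genes inside, against 6.21% of other genes, and 5 at the ends, against 3.58%. Acvr2a was lost from both counts, Smad6 from those inside and Acvr1 from those at the ends. A window of 1 kb at gene ends gave 3 of the 46 genes (Acvr1, Smad1 and Smurf2), against 3.29% of other genes. A window of 10 kb gave 11 of the 46, against 9.81%, and annotated starts gave 3 of the 34 with an entry. Leaving out each replicate in turn gave 26 to 36 shared regions, 11 to 15 genes with one inside, against 11.3% to 14.4% of other genes, 7 to 9 at the ends, against 6.49% to 7.89%, and 27 to 28 within 100 kb, against 47.3% to 56.6%. The highest number of regions, 36, and the 14.4% came without replicate 2. All 10 genes with a region inside and all 7 with a region at an end kept it at an overlap of 50% and with summits within 100 bp. These genes also kept a region when each replicate was left out in turn. That setting mostly loosens what counts as shared, so few losses could appear. Of 48 class counts, 5 moved by over 1.5 times: without replicate 1, 2 ID genes (Id1 and Id3) had a shared region at an end, without replicate 2, 1 ID gene (Id2) had one inside and at an end and 4 ligand genes had one inside, and without replicate 3, 4 SMAD genes had one inside. Stricter thresholds leave fewer peaks by construction, and other causes were not tested. No paired analysis was possible because peak lists of 1 condition were used and no groups were compared. The number of fragments behind a peak limits what these lists can show at a gene, and a gene without a peak was not shown to be unbound.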
